A study of Mus musculus with 3 samples.

Results

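Cholesterol synthesis was followed through 9 genes, Hmgcs1, Sqle, Insig1, Fdft1, Fdps, Idi1, Cyp51, Msmo1 and Srebf2, taken by symbol from the 32285 genes of the files, and all 9 were found. The cells came from the brains of Apoe knockout (APOE-/-) mice and were sorted for intermediate CD45 and for CD11b (CD45int CD11b+), as microglia, the brain's own macrophages, are. Their RNA was counted cell by cell in droplets, from the 3′ ends of transcripts. There were 3 groups at day 4: sham induction + PBS, NMOSD induction + control peptide, and NMOSD induction + APOE130-149, where NMOSD usually stands for neuromyelitis optica spectrum disorder, in which antibodies attack astrocytes of the optic nerve, spinal cord and brain. All groups carried the knockout of Apoe, which codes for a carrier of cholesterol between brain cells, so none had the normal gene, and each group was a single library from a pool of 4 mice. The study's question was how APOE bears on the state of microglia. The sources used here do not give the kind of knockout allele, the strain, the age, the sequence of either peptide or the way NMOSD was induced.

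Cells make cholesterol from acetyl-CoA through mevalonate, isoprenoid units, squalene and lanosterol. The pathway is switched by SREBP2, the protein of Srebf2, a membrane-bound transcription factor that is carried to the Golgi and cut when membranes are short of sterol, and that the INSIG proteins hold back in the endoplasmic reticulum when sterol is plentiful. The enzyme genes, Insig1 and Srebf2 itself are known SREBP2 targets. In the adult brain, astrocytes and myelinating oligodendrocytes are known as the main makers of cholesterol, while microglia also take in lipid from myelin and debris.

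The stretches upstream of 3 of these genes are shown because they are the regulatory DNA of the SREBP2 gene itself, of the gene of its retention factor and of an early enzyme. They are printed 5′ to 3′ from RefSeq on GRCm38.p6 and end before both the RefSeq and the GENCODE start of the gene. Capitals mark 3 searched motifs on either strand: TCACNCCAC, a core of the sterol response element, CCAAT, read as ATTGG on the other strand, and CACGTG, the E-box.
Hmgcs1, chr13:119690101-119690350, plus strand: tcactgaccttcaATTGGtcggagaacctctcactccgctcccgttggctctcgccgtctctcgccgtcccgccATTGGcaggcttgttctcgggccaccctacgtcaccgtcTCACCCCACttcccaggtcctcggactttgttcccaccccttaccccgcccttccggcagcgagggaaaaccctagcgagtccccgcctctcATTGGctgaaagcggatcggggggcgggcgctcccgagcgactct
Insig1, chr5:28071162-28071362, plus strand: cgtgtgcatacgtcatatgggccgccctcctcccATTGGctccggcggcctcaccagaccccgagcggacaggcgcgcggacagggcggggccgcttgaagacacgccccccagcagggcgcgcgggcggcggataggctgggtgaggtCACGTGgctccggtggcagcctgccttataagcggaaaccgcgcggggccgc
Srebf2, chr15:82147019-82147180, plus strand: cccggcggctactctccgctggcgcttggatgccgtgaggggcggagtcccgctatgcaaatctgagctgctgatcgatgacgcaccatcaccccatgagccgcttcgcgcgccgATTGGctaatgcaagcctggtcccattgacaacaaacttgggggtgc
RefSeq stretches were found for 6 of the 9 genes, namely these 3, Cyp51, Msmo1 and Idi1. In the 250 bases before the RefSeq start, CCAAT lay in 6 of the 6 and in 34.5% of the 27025 promoters searched, and the GC box GGGCGG, left in lower case, lay in 6 of the 6 and in 32.9% of all. TCACNCCAC was found in 1 of the 6, Hmgcs1, from 137 to 129 bases before the start (positions -137 to -129), and in 1.04% of all promoters. CACGTG was found in 1 of the 6, Insig1, at positions -101 to -96, and in 6.05% of all. These matches describe the letters in these windows and do not show a bound site.

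The libraries held 2175 to 5306 barcodes and 32060750 to 61469677 unique molecular identifiers (UMIs), and 2025 to 5011 cells were kept. Libraries shared 9 barcodes (control peptide and sham), 3 (APOE130-149 and control peptide) and 0 (APOE130-149 and sham). Cells were put into classes by distinct marker genes, none of them a cholesterol synthesis gene. In the order sham, control peptide and APOE130-149, there were 3466, 3534 and 1280 microglia, 19, 18 and 22 border-associated macrophages (macrophages of the meninges and vessels), 83, 146 and 72 neutrophils, and 34, 55 and 35 monocytes. Markers that took no part in the gates were at high levels in their own class, with the sum of S100a8, S100a9, Csf3r and Il1r2 at 161843 to 275576 CPM (UMIs of the genes per 1000000 UMIs of that class in that library) in neutrophils against 476 to 528 CPM in microglia. The sum of Lyz2, Ifitm3, S100a4 and Ly6i was 21554 to 25753 CPM in monocytes against 930 to 983 CPM in microglia. Cells outside the gates were 14.9%, 25.1% and 30.4% of the kept cells and carried more UMIs, with medians of 7465, 13992 and 19552 against 7058, 7211 and 8656 in microglia. Apoe itself gave 72.0, 81.7 and 87.7 CPM in microglia, and since the deleted part of the gene is not given, these 3′ tags do not test the genotype. Intervals in brackets are 95% intervals of counting error only, exact Poisson for levels and exact conditional for ratios, and spread between mice or preparations is not in them.

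Monocytes carried the most cholesterol synthesis RNA of the 4 classes in each library, neutrophils an intermediate amount, and microglia less than both. The 9 genes together gave 459 CPM in sham monocytes, 325 CPM with the control peptide and 235 CPM with APOE130-149, against 111, 105 and 97.6 CPM in microglia of the same libraries. Per library, monocytes held 4.12 [3.56 to 4.75], 3.11 [2.73 to 3.52] and 2.40 [1.99 to 2.88] times the microglial level. Neutrophils, at 207, 187 and 155 CPM, held 1.86 [1.55 to 2.22], 1.79 [1.62 to 1.97] and 1.59 [1.36 to 1.85] times that level. Border-associated macrophages, at 98.3, 180 and 115 CPM, could not be placed in this order: they gave 20, 21 and 16 UMIs of the 9 genes in all, and their ratios to microglia were 0.884 [0.539 to 1.37], 1.73 [1.07 to 2.64] and 1.18 [0.671 to 1.92].

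**Figure D1:**
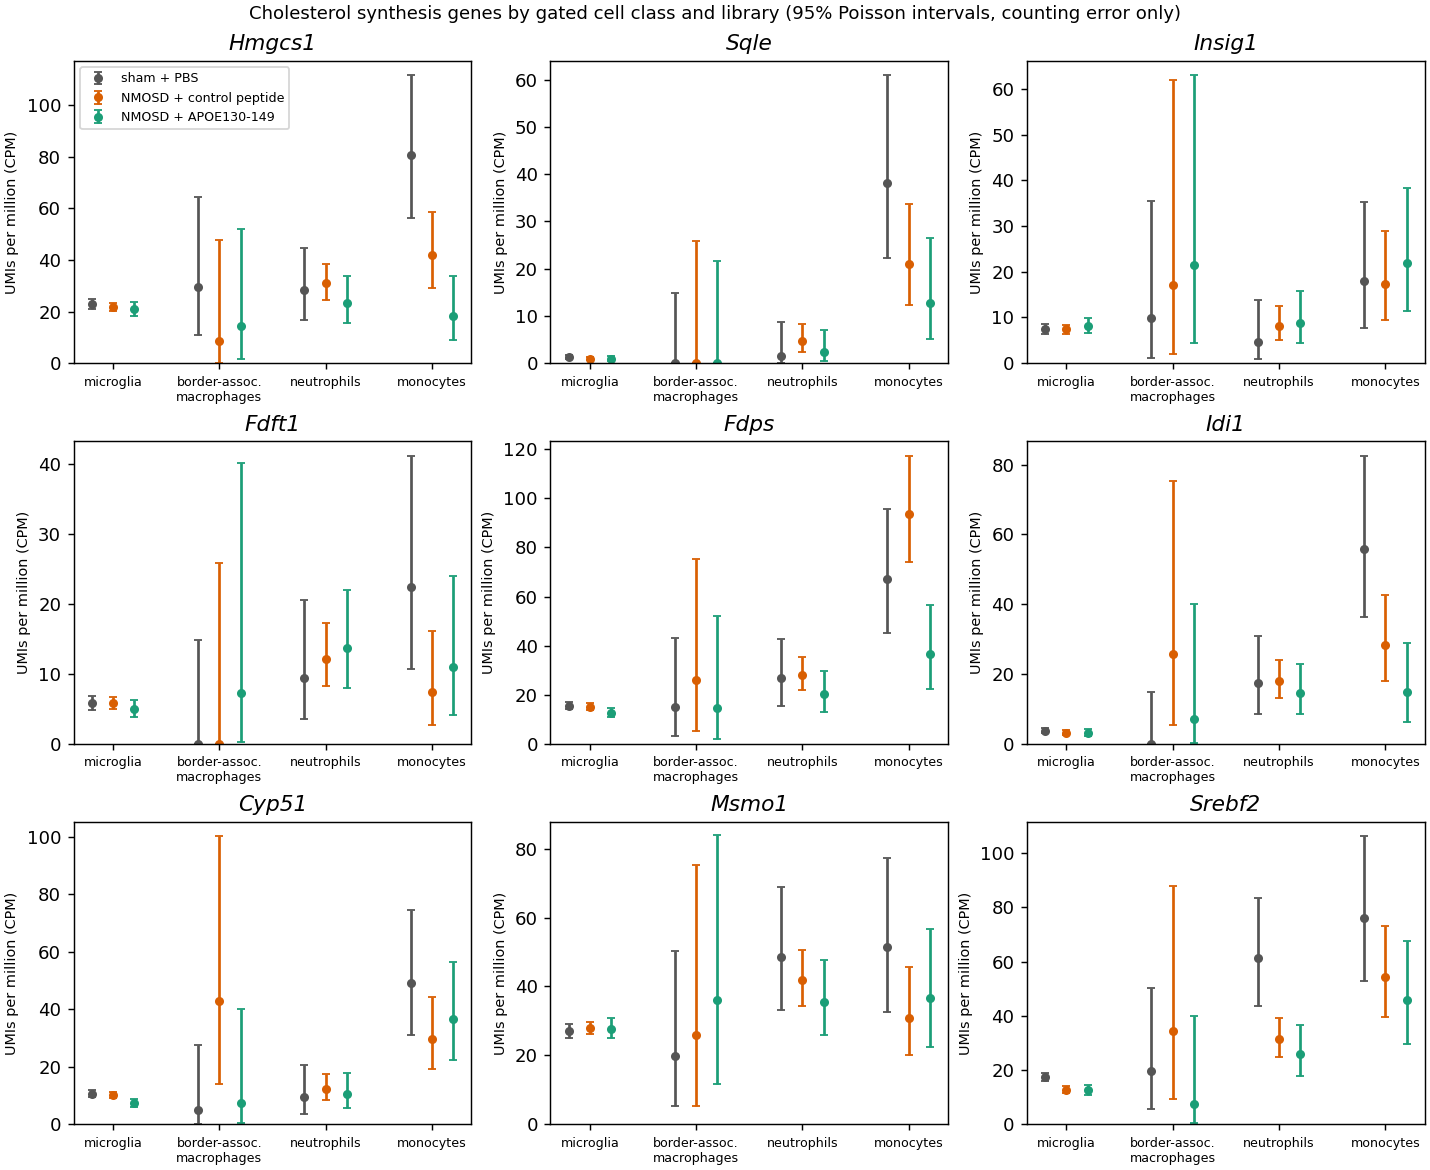
Levels of the 9 cholesterol synthesis genes (y axes, CPM, linear and different in each panel) in the 4 gated cell classes (x axes), with 1 point per library and 95% Poisson intervals of counting error; at 0 UMIs the bar reaches the limit that 3 counts set. In each library the monocyte point lies above the microglia point for all 9 genes except Hmgcs1 with APOE130-149, at 18.3 against 20.9 CPM.

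Classes were compared across the 3 libraries with edgeR's quasi-likelihood test on UMI sums, the library as a block and Benjamini-Hochberg adjustment over all genes tested. The 3 libraries are the replicates of this test and differ in treatment. The filter on low counts kept 7 of the 9 genes, left out Sqle and Fdft1, and let Insig1, Idi1 and Cyp51 through although no microglia library reached its level of 13.8 CPM, so their place in the test depended on the classes in which they were higher. Of the 8543 genes tested, 28.7% were higher and 30.0% lower in monocytes than in microglia, and of the 7 cholesterol synthesis genes 7 were called higher. With no filter on low counts, where 14.7% of 19884 genes were called higher and 14.7% lower, 9 of the 9 were higher in monocytes. The median log2 fold change of the 9 was then 2.20. Over all genes it was -0.69, a median that takes in genes of very few counts, and it was -0.68 in border-associated macrophages. With the filter on low counts the median in monocytes was 2.18 for the 7, against -0.08 over all genes. For neutrophils, 19.4% of genes were higher and 25.9% lower (1661 and 2215), 5 of the 7 cholesterol synthesis genes were called higher and 0 lower. With no filter, 11.5% of genes were called higher and 8.55% lower in neutrophils, and of the 9 cholesterol synthesis genes 7 were higher. With median-of-ratios scaling the neutrophil split was 1886 higher and 1404 lower and the median of all genes moved from -0.22 to -0.07, while 5 of the 7 were again called.

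Srebf2, the gene of the transcription factor SREBP2 (chromosome 15, 82147181 to 82205379, GRCm38), stood at 76.1, 54.3 and 45.8 CPM in monocytes, at 61.1, 31.4 and 25.8 CPM in neutrophils and at 17.3, 12.7 and 12.4 CPM in microglia, in the order sham, control peptide and APOE130-149. Monocytes and neutrophils were above microglia in 3 of 3 libraries, and neither overlapped with microglia. The log2 fold change was 2.21 ± 0.24 (SE) for monocytes (edgeR adjusted p = 8.72e-07) and 1.78 ± 0.23 for neutrophils (adjusted p = 8.30e-06). SE here is the size of the log2 fold change divided by the square root of the test's F statistic. Within these classes sham was the highest library. In neutrophils the level with APOE130-149 was 0.422 [0.256 to 0.692] of that in sham, from 32 and 39 UMIs. This is short of the 50 UMIs asked of single-library ratios below, so the difference was not called and was not set against a share of all genes. Insig1 (chromosome 5, 28071363 to 28078662), the sterol-dependent brake on SREBP2, gave 17.9, 17.3 and 22.0 CPM in monocytes against 7.47, 7.39 and 8.15 CPM in microglia and was higher by 1.46 ± 0.32 on the log2 scale, as are all class differences given with ± below (adjusted p = 0.000884). In neutrophils, at 4.70, 8.24 and 8.87 CPM, it lay on both sides of the microglial level and was not called (log2 fold change 0.34 ± 0.31, adjusted p = 0.39).

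Of the enzymes of the mevalonate and isoprenoid steps, Idi1 (chromosome 13, 8885501 to 8892451), which interconverts the 5-carbon isoprenoid units, stood at 55.9, 28.4 and 14.7 CPM in monocytes, at 17.2, 18.0 and 14.5 CPM in neutrophils and at 3.60, 3.14 and 2.93 CPM in microglia. Its log2 fold changes were 3.44 ± 0.40 in monocytes (edgeR adjusted p = 1.75e-06) and 2.78 ± 0.38 in neutrophils (adjusted p = 2.20e-05), and neither class overlapped with microglia. Between libraries its monocyte level spread widely while its neutrophil level did not. Fdps (chromosome 3, 89093588 to 89101959), which joins these units into farnesyl diphosphate, gave 67.1, 93.9 and 36.6 CPM in monocytes, 26.6, 27.8 and 20.2 CPM in neutrophils and 15.5, 15.1 and 12.6 CPM in microglia. It was higher by 2.36 ± 0.22 in monocytes (adjusted p = 1.16e-07) and by 1.13 ± 0.23 in neutrophils (adjusted p = 0.000798). Hmgcs1 (chromosome 13, 119690379 to 119708260), which makes HMG-CoA, gave 80.5, 42.0 and 18.3 CPM in monocytes, 28.2, 31.0 and 23.4 CPM in neutrophils and 23.0, 21.7 and 20.9 CPM in microglia. Monocytes overlapped with microglia, since their APOE130-149 level was 0.877 [0.416 to 1.64] of the microglial one. Hmgcs1 was higher by 1.18 ± 0.28 in monocytes (adjusted p = 0.00153) and by 0.74 ± 0.25 in neutrophils (adjusted p = 0.0243), where without the control peptide library it was 0.73 with an adjusted p of 0.14.

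The squalene enzymes were sparse in microglia. Sqle (chromosome 15, 59315077 to 59331192), which adds the first oxygen to squalene, gave 31, 28 and 11 UMIs in all microglia of the sham, control peptide and APOE130-149 libraries, or 1.23, 0.908 and 0.870 CPM. In monocytes it stood at 38.0, 20.99 and 12.8 CPM from 17, 17 and 7 UMIs, which was 31.0 [16.1 to 57.8], 23.1 [11.9 to 43.8] and 14.7 [4.85 to 41.6] times the microglial level. With no filter on low counts its log2 fold change in monocytes was 4.68 ± 0.59 (edgeR adjusted p = 3.36e-14). In neutrophils it gave 1.57, 4.71 and 2.42 CPM and, unfiltered, was 2.23 ± 0.70 higher (adjusted p = 0.00921). Border-associated macrophages gave 0 UMIs of Sqle in each library, for which a limit of 3 counts stands at 14.7, 25.8 and 21.6 CPM. Fdft1 (chromosome 14, 63145150 to 63179578), which makes squalene, stood at 22.4, 7.41 and 10.99 CPM in monocytes, 9.40, 12.2 and 13.7 CPM in neutrophils and 5.73, 5.77 and 4.90 CPM in microglia. The levels of these classes did not overlap with those of microglia, but the monocyte values rest on 10, 6 and 6 UMIs. Their ratios to microglia were 3.90 [1.83 to 7.39], 1.28 [0.465 to 2.85] and 2.24 [0.792 to 5.16]. In neutrophils, from 6, 31 and 17 UMIs, they were 1.64 [0.592 to 3.66], 2.11 [1.39 to 3.10] and 2.80 [1.53 to 4.84]. Unfiltered, Fdft1 was higher by 1.37 ± 0.46 in monocytes (edgeR adjusted p = 0.0112) and by 1.61 ± 0.37 in neutrophils (adjusted p = 0.000152).

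The enzymes after lanosterol differed less evenly. Cyp51 (chromosome 5, 4081145 to 4104746), the lanosterol demethylase, gave 49.2, 29.6 and 36.6 CPM in monocytes, 9.40, 12.2 and 10.5 CPM in neutrophils and 10.5, 10.0 and 7.20 CPM in microglia. It was higher by 2.18 ± 0.31 in monocytes (edgeR adjusted p = 1.58e-05), while neutrophils overlapped with microglia and were not called (0.62 ± 0.33, adjusted p = 0.14). Msmo1 (chromosome 8, 64718139 to 64733792), the methylsterol oxidase of the following step, gave 51.4, 30.9 and 36.6 CPM in monocytes, 48.6, 42.0 and 35.5 CPM in neutrophils and 26.9, 27.8 and 27.7 CPM in microglia. Both classes lay above microglia in 3 of 3 libraries, with log2 fold changes of 0.65 ± 0.24 in monocytes (adjusted p = 0.0267) and 0.97 ± 0.20 in neutrophils (adjusted p = 0.000919). The monocyte call for Msmo1 was lost without the sham library (0.42, adjusted p = 0.15) and without the APOE130-149 library (0.67, adjusted p = 0.10). It was also lost without the cell of each class and library richest in the 9 genes (the 0.25% of cells with most of their UMIs, at least 1 cell; 0.33, adjusted p = 0.26) and, in all, under 7 of 16 alternative settings.

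Some genes share bases with a neighbour, and whether the counts used strand is not given in the sources used here. The 3′ end of Cyp51 overlaps that of Akap9, a scaffold protein of the Golgi and centrosome, on the opposite strand by 166 bases (chr5:4081145-4081310). Akap9 gave 74, 89 and 48 CPM in monocytes against 187, 169 and 135 CPM in microglia. Fdft1 overlaps Ctsb, a lysosomal protease, by 774 bases on the opposite strand. Ctsb gave 966, 773 and 834 CPM in monocytes against 2626, 2616 and 2770 CPM in microglia. The part of these overlaps in the class differences of Cyp51 and Fdft1 was not tested. The antisense gene Gm48342 within Hmgcs1 gave 1 UMI in the microglia of each library and 0 in the other 3 classes. Srebf2 hosts Mir33, a microRNA gene that acts on cholesterol efflux and is not counted apart here.

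Border-associated macrophages did not pass the test for any of these genes. Of the 7 tested 0 were called in either direction by edgeR, 0 had an unadjusted p under 0.05 and DESeq2 called 0, while 7.19% of all genes were called higher and 7.32% lower. With 16 to 21 UMIs of the 9 genes per library, a difference of the size seen in neutrophils could not be measured well: the log2 fold changes ran from -0.28 ± 0.57 for Hmgcs1 to 1.37 ± 1.02 for Idi1.

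Other genes of the pathway were read against the same background of 28.7% of genes higher and 30.0% lower in monocytes. Of 15 further synthesis enzymes 8 passed the filter, which favours genes that are high in some class, and 7 were not tested. Of the 8, 5 were higher and 0 lower in monocytes, a count that does not speak for the 15. Among them were Lbr, a sterol reductase that is also a nuclear envelope protein (2.62 ± 0.22, edgeR adjusted p = 3.05e-08), Mvd (2.54), Pmvk (1.74) and Sc5d (1.39), of which Mvd, Pmvk and Sc5d were named after their values were seen. Of 10 genes that carry, cut or degrade SREBP and its partners, all tested, 0 were higher and 7 lower, from Insig2, a second retention factor (-1.77 ± 0.28, adjusted p = 3.63e-05), to Mbtps1, a protease that cuts SREBP (-0.59). Scap, the sterol-sensing escort of SREBP2, was among the 7 (-0.87 ± 0.32, adjusted p = 0.0254).

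Of 9 uptake and trafficking genes tested, 3 were higher and 4 lower in monocytes, and of 9 efflux and esterification genes 3 were higher and 3 lower, both near the shares over all genes of 28.7% higher and 30.0% lower. Mylip, a ubiquitin ligase, was the lowest (-2.70 ± 0.25, edgeR adjusted p = 9.96e-08), at 42.5, 54.3 and 49.5 CPM in monocytes against 359, 346 and 372 CPM in microglia. The called efflux genes ran from Plin2, a coat protein of lipid droplets (2.67 ± 0.21), to Ch25h, which makes 25-hydroxycholesterol, a brake on SREBP processing. Ch25h gave 0, 0 and 1 UMIs in monocytes against 20.0, 10.2 and 9.10 CPM in microglia (adjusted p = 0.00321). Of 4 fatty acid synthesis genes tested, Acly was higher (0.59 ± 0.19, adjusted p = 0.0133) and Fads1 lower (-2.84 ± 0.39, adjusted p = 9.05e-06). In neutrophils, where 19.4% of all genes were higher and 25.9% lower, the same lists gave 3 higher and 1 lower of 8 synthesis enzymes, 0 and 5 of 10 machinery genes, 1 and 6 of 9 uptake genes, 4 and 3 of 9 efflux genes and 0 and 2 of 4 fatty acid genes.

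**Figure D2:**
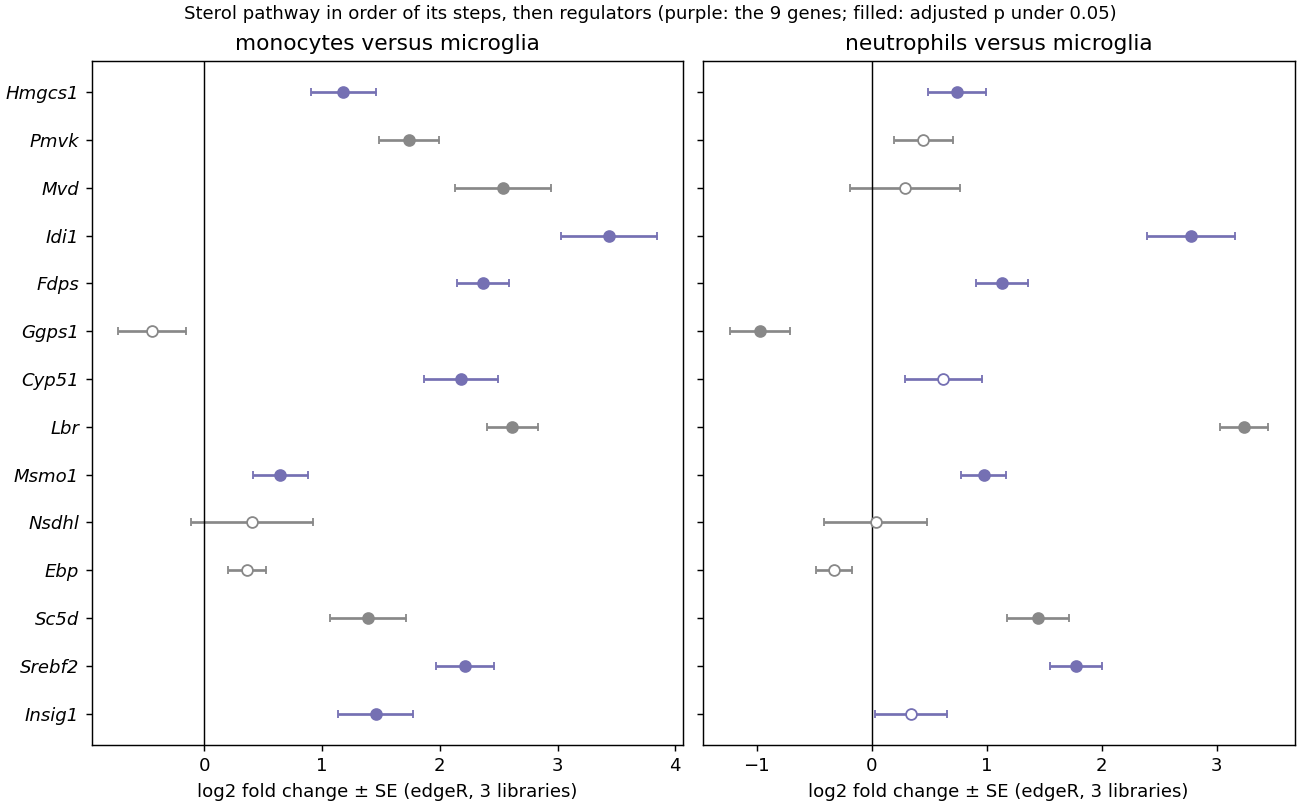
Log2 fold change (x axis) against microglia in monocytes (left) and neutrophils (right) for tested synthesis genes in the order of the pathway, then Srebf2 and Insig1 (y axis), from edgeR over 3 libraries. Bars are standard errors worked out from the F statistic of the test, purple points are the 9 genes, and filled points have an adjusted p under 0.05. In monocytes the 7 purple points are filled, from 0.65 for Msmo1 to 3.44 for Idi1.

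Markers of other cells moved with these classes. Microglial gate markers summed to 2140, 5159 and 4418 CPM in neutrophils, against 11482, 11949 and 12458 CPM in microglia and 264, 611 and 623 CPM in monocytes, with 8 of 8 markers detected in each. Their part in the neutrophil values was not tested. With gates that allowed at most 2 distinct microglia markers, 3 of the genes stayed in the test, of which 3 were called in neutrophils and 2 in monocytes. Of all 4936 genes tested there, 1320 were higher and 1669 lower in neutrophils, and 1281 were higher and 1481 lower in monocytes. T and NK cell markers gave 8.95, 510 and 260 CPM in monocytes (2, 6 and 6 of 6 detected), and without cells that had at least 2 distinct markers of T and NK cells or of the choroid plexus 7 of the 7 were called in monocytes and 5 of the 7 in neutrophils. Of all 8400 genes tested there, 2414 were higher and 2540 lower in monocytes, and 1703 were higher and 2339 lower in neutrophils. Oligodendrocyte markers summed to 80.5, 66.7 and 71.4 CPM in monocytes and 52.6, 52.8 and 56.1 CPM in microglia. Without cells that held oligodendrocyte or astrocyte markers 6 of the 7 were called in monocytes, where 2389 of 8322 genes were higher and 2549 lower. Doublets were kept. Monocytes had medians of 14480, 13267 and 16460 UMIs per cell, and without cells above 2 times the median UMIs of their class and library 6 of 6 tested were called in monocytes and 5 of 6 in neutrophils. Of all 7564 genes tested there, 2156 were higher and 2255 lower in monocytes, and 1535 were higher and 1970 lower in neutrophils.

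Within monocytes the sum of the 9 genes was lower in both NMOSD libraries than in sham. The ratio was 0.708 [0.588 to 0.854] for the control peptide over sham, 0.722 [0.580 to 0.895] for APOE130-149 over the control peptide and 0.511 [0.407 to 0.641] for APOE130-149 over sham. These are single libraries of 34, 55 and 35 cells, so there is no replicate check and no test. The comparisons share libraries. For APOE130-149 against the control peptide 1 of the 9 genes reached the filter for single-library ratios (10 CPM or more, with 50 UMIs or more, in whichever library was higher), Fdps, and it was lower, at 0.390 [0.226 to 0.646], where 3.28% of genes were at least 1.5-fold higher and 8.77% lower with an interval excluding 1. For the control peptide against sham 1 of the 9, again Fdps, reached the filter and was not called, at 1.40 [0.906 to 2.21], where 8.94% of genes were higher and 4.69% lower by as much. A single cell held 22.0%, 16.0% and 30.5% of the UMIs of the 9 genes in monocytes of the sham, control peptide and APOE130-149 libraries.

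Cycling cells differed between these monocyte libraries. Summed markers of the cell cycle gave 548, 1329 and 121 CPM, and 3, 12 and 2 monocytes had at least 3 of the 10 markers. In the control peptide library these 12 cells held 562 CPM [472 to 664] of the 9 genes and the other 43 held 222 CPM [184 to 264]. In the other libraries the cycling cells were not above the rest, with 388 CPM [243 to 587] in the 3 sham cells and 128 CPM [51.5 to 264] in the 2 with APOE130-149. Among the remaining monocytes the sum was 469 CPM [403 to 542] in sham, 222 CPM with the control peptide and 246 CPM [204 to 294] with APOE130-149. Sham was still above both NMOSD libraries, while the intervals of the control peptide and APOE130-149 overlapped and their order was turned. Without cycling cells 6 of the 9 genes were tested between classes, and 5 were called higher in monocytes and 5 in neutrophils. Of all 7623 genes tested there, 2232 were higher and 2279 lower in monocytes, and 1534 were higher and 2262 lower in neutrophils.

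Neutrophils showed a smaller spread between libraries. Their sums gave ratios of 0.906 [0.746 to 1.11] for the control peptide over sham, 0.826 [0.695 to 0.978] for APOE130-149 over the control peptide and 0.748 [0.597 to 0.941] for APOE130-149 over sham. Cells with at least 2 of Camp, Ngp and Ltf, granule genes of neutrophil precursors, held 208, 189 and 163 CPM, and the 14, 13 and 14 cells without them held 195 [93.4 to 358], 121 [44.2 to 262] and 70.8 CPM [30.6 to 139]. For sham and the control peptide these intervals include the level of the other cells. For the control peptide against sham 2 of the 9 genes reached the filter and 0 were called at 1.5-fold, where 36.9% of genes were higher and 5.57% lower. For APOE130-149 against the control peptide 4 reached it and 0 were called, where 2.76% of genes were higher and 7.43% lower. Sham neutrophils were shallow, with a median of 3048 UMIs against 11073 and 11519.

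Among the gated cells, leaving aside those that no gate took, microglia supplied most of the counts of the 9 genes in each library. In microglia the 9 genes differed little between treatments. Their sum was 111 CPM [107 to 115] in sham, 105 CPM with the control peptide and 97.6 CPM with APOE130-149. The ratios were 0.941 [0.894 to 0.990] for the control peptide over sham, 0.933 [0.873 to 0.997] for APOE130-149 over the control peptide and 0.878 [0.820 to 0.939] for APOE130-149 over sham. For the control peptide over sham the log2 ratio, -0.09, turned to 0.0323 over all kept cells and was -0.00731 with median-of-ratios scaling. The intervals exclude 1 narrowly and cover counting error only, and the differences have no replicate check. Of the 9 genes 5 reached the filter, Hmgcs1, Fdps, Cyp51, Msmo1 and Srebf2, and 0 differed by 1.5-fold in any comparison, where 1.39% of genes were higher and 0.873% lower for the control peptide against sham, 0.608% and 0.167% for APOE130-149 against the control peptide, and 1.54% and 1.16% for APOE130-149 against sham. The median log2 ratio of the 5 was -0.06, -0.05 and -0.30 in these comparisons, against -0.08, 0.01 and -0.05 over all genes at that filter.

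At a 1.2-fold threshold single genes were past the size rule. Srebf2 was lower with the control peptide than in sham, at 12.7 against 17.3 CPM (ratio 0.736 [0.640 to 0.845]), the single gene of the 5 past this threshold, where 4.25% of all genes were higher and 16.7% lower by as much, so that 1 of 5 is near the background. With APOE130-149 it was at 12.4 CPM, 0.977 [0.807 to 1.18] of the control peptide level. Cyp51 was lower with APOE130-149 than with the control peptide, at 7.20 against 10.0 CPM (ratio 0.716 [0.561 to 0.908]), again 1 of the 5, where 5.68% of all genes were higher and 3.06% lower by as much. Akap9, whose 3′ end it shares, was lower too, at 0.797 [0.754 to 0.842], and the part of that overlap in the Cyp51 value was not tested. Without Cyp51 the log2 ratio of the sum was -0.06 for this comparison, against -0.10 with it. For APOE130-149 against sham 3 of the 5 were lower at this threshold, Srebf2, Cyp51 and Fdps (0.812 [0.671 to 0.978]), where 5.05% of all genes were higher and 13.4% lower by as much. Without cells above 2 times the median UMIs of their class and library the Fdps log2 ratio was 0.0155, so that its call was lost and its direction turned.

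**Figure D3:**
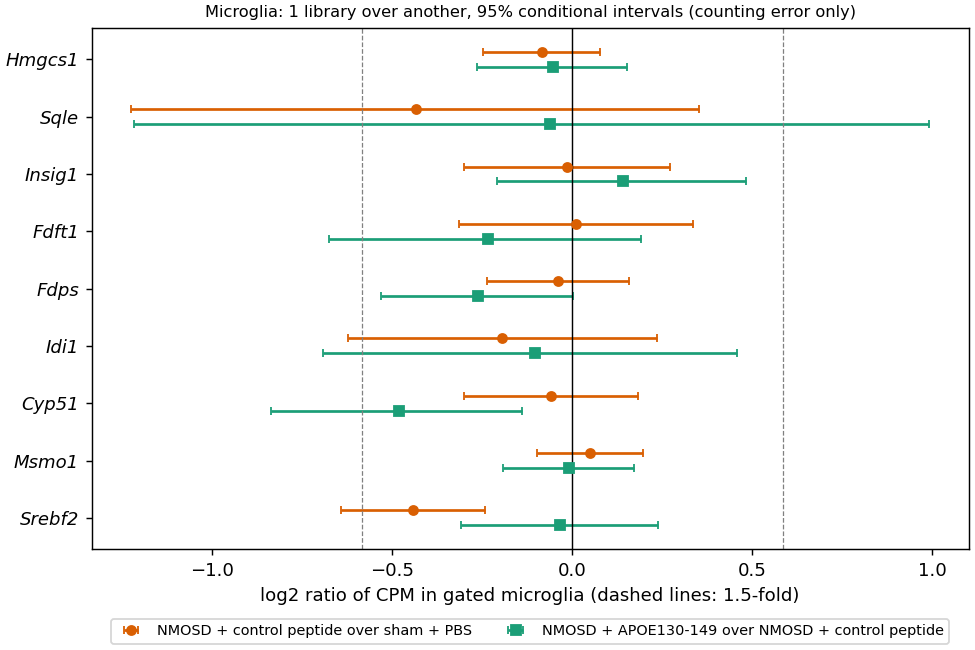
Log2 ratio of CPM in gated microglia (x axis) for each of the 9 genes (y axis), with 95% conditional intervals of counting error, for the control peptide over sham (orange circles) and APOE130-149 over the control peptide (green squares), which share the control peptide library. The points lie inside the dashed lines at 1.5-fold, and the intervals of Srebf2 (control peptide over sham) and Cyp51 (APOE130-149 over control peptide) lie below 0.

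The remaining 6 genes, Hmgcs1, Sqle, Insig1, Fdft1, Idi1 and Msmo1, had ratios in microglia whose intervals include 1 in each comparison. Msmo1 stood at 26.9 CPM [24.9 to 29.0], 27.8 CPM [26.0 to 29.8] and 27.7 CPM [24.9 to 30.7]. Hmgcs1 was at 23.0 CPM [21.2 to 24.9], 21.7 CPM [20.1 to 23.4] and 20.9 CPM [18.4 to 23.6]. By contrast the immediate early genes, a list that includes Fos, Egr1 and Klf4, summed to 1971, 8824 and 12424 CPM in the same microglia, and their part in the small differences above was not tested.

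The lists around synthesis were as flat in microglia, with single exceptions. At 1.5-fold 0 of 7 tested synthesis enzymes, 0 of 10 machinery genes, 0 of 8 uptake genes and 0 of 4 fatty acid genes differed between the control peptide and sham. Of 9 efflux and esterification genes 1 was lower, Ch25h, at 20.0 CPM in sham, 10.2 CPM with the control peptide and 9.10 CPM with APOE130-149 (ratio 0.508 [0.440 to 0.586] for the control peptide over sham). Plin2 was the highest of that list, at 1.30 [1.19 to 1.41]. Between APOE130-149 and the control peptide 0 genes of these lists differed by 1.5-fold.

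The states of microglia were compared in the same way. Cycling, lipid-handling and interferon-responsive microglia were gated by at least 3 markers of their lists and compared with microglia of none, with the edgeR test over the 3 libraries. In cycling microglia, 37, 41 and 16 cells, 1 of 8 tested genes was higher and 0 lower, against 12.7% higher and 9.86% lower of 10674 genes. This was Fdps, at 42.4, 29.1 and 19.4 CPM from 11, 9 and 3 UMIs against 12.999, 13.6 and 11.2 CPM (log2 fold change 1.38 ± 0.36, edgeR adjusted p = 0.00297). The call was lost without the sham library (1.10, adjusted p = 0.12) and with a stricter filter on cells (0.83, adjusted p = 0.19). In lipid-handling microglia, 206, 285 and 129 cells marked by genes such as Spp1, Lpl and Gpnmb, 0 of 8 were called by edgeR, 0 had an unadjusted p under 0.05 and DESeq2 called 0, against 10.2% higher and 6.09% lower of all genes. The log2 fold changes ran from -0.13 ± 0.12 for Msmo1 to 0.65 ± 0.37 for Idi1.

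In the same lipid-handling cells, against 10.2% higher and 6.09% lower of all genes, other lipid genes were called. Of 9 efflux and esterification genes 4 were higher and 1 lower, led by Ch25h (3.80 ± 0.20, edgeR adjusted p = 2.98e-20), with Acsl1 at the other end (-0.28 ± 0.09, adjusted p = 0.0261). In cycling microglia 3 of the 9 were higher and 3 lower, again with Ch25h as the highest (3.11 ± 0.54, adjusted p = 9.94e-06). Of 9 uptake and trafficking genes 2 were higher, with Npc2, which hands cholesterol out of the lysosome, at the top (0.39 ± 0.05, adjusted p = 8.61e-08). In interferon-responsive microglia, 254, 318 and 107 cells, 0 of the 8 cholesterol synthesis genes were called by edgeR or DESeq2 and 1, Hmgcs1 (0.33 ± 0.13, adjusted p = 0.19), had an unadjusted p under 0.05, where 3.92% of genes were higher and 0.853% lower. Of the 9 efflux genes 0 were called in these cells, and of the 9 uptake and trafficking genes 2 were higher, with Npc2 as the highest (0.23).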

How the data were processed

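Per the labels' protocols, single-cell 3′ libraries (10x Genomics v.2 kit) were made from sorted brain cells. The submitters' processing notes name Cell Ranger 5.0.1, Seurat 4.3.0 and mm10, while the headers of the deposited matrices name cellranger 7.0.1. The deposited values are UMI counts per gene and cell barcode, not normalized, in matrices already filtered for cells by the authors (lowest total 500 UMIs). The sources used here do not give strand or intron settings.

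Cells were kept from 500 detected genes up, if mitochondrial UMIs were no more than 10%. Every class needed at least 3 of its markers. Border-associated macrophages, neutrophils and monocytes also needed a margin of 2 markers over each other among themselves. Against microglia they needed only more UMIs of their own gate markers than of the microglial ones. Microglia could have at most 1 marker of each other class. No doublet caller was run and doublets were kept. UMIs were summed per library and class. Treatments have 1 library each, so they were compared by ratio with exact 95% intervals and no test. A gene counted as different when its higher library reached 10 CPM and 50 UMIs, with an interval excluding 1, and a 1.5-fold (second threshold 1.2-fold) difference. Classes and states were tested with edgeR 4.0.16 (quasi-likelihood, TMM scaling, low-count filter, library as block, Benjamini-Hochberg adjusted p under 0.05 over all genes tested), with DESeq2 1.42.0 as an alternative, in R 4.3.3. The libraries pair the classes because all classes of a number come from the same pool of mice. With the library as a block, overall differences between libraries are taken out. These p-values set a class difference against how such differences vary over 3 libraries that differ in treatment. That variation is estimated over all classes or states of a fit together. The test was tested on simulated counts with a set dispersion of 0.05. Of 100 genes changed 2-fold, it recovered 15 in border-associated macrophages, 41 in neutrophils and 34 in monocytes. In cycling, lipid-handling and interferon-responsive microglia it recovered 13, 49 and 46 of 100. Of 100 genes changed 4-fold, it recovered 57, 83, 79, 65, 97 and 95 in the same order. A gene that was not called may therefore still differ 2-fold. Intervals and limits cover counting error only.

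Gene positions come from GENCODE M21 (GRCm38), in which 32158 of the 32285 gene IDs were matched, and sequences from RefSeq. The 9 genes, the marker and gene lists and the tests were chosen with earlier results of these data known. Named are the 9 genes, the called members of each other list with the largest and smallest change, overlap partners and Apoe, and the 5 genes most like the sum. Some genes of the other lists are counted but not reported singly here.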

Additional observations from a re-analysis of the deposited data

Results flagged for a closer look

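Cells that no gate took, 629, 1258 and 616 in the sham, control peptide and APOE130-149 libraries, enter none of the class comparisons and carried cholesterol synthesis RNA as well. Their 9 genes summed to 119 CPM in sham and 129 CPM with the control peptide, a ratio of 1.09 [1.001 to 1.18], an interval that lies just above 1 and covers counting error only. With APOE130-149 they summed to 101 CPM, 0.854 [0.781 to 0.934] of sham. There is 1 library per group and no test.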

How the results depend on the processing

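The summed microglial level of the 9 genes, a log2 ratio of -0.09 for the control peptide against sham, was 0.0323, and so turned, over all kept cells, and -0.00731 with median-of-ratios scaling. For APOE130-149 against the control peptide it was -0.10, and -0.22 over all kept cells. Over 13 alternatives each, these sums ran from -0.09 to 0.03, from -0.22 to -0.06 and, for APOE130-149 against sham, from -0.23 to -0.11. Fdps for APOE130-149 against sham was 0.0155 without cells above 2 times the median UMIs of their class. The cause was not tested. The number of the 9 genes called ran from 2 to 9 in monocytes and from 3 to 7 in neutrophils over 17 alternatives each, and was 0 in border-associated macrophages, lipid-handling and interferon-responsive microglia under all those run. With gates of at most 2 microglia markers, where 3 of the genes could be tested, it was 2 in monocytes and 3 in neutrophils. In cycling microglia it was 0 with a filter of 1000 genes and 5% mitochondrial UMIs, where 1231 of 10538 genes were higher and 889 lower. Leaving out sham, the control peptide or APOE130-149 in turn, 9, 7 and 8 of the 9 genes were tested between classes. In that order 7, 7 and 7 of them were called in monocytes and 7, 4 and 6 in neutrophils. The calls were 0 to 1 in cycling microglia (0 without sham) and 0 to 0 in the other comparisons. All genes tested were then 9449 without sham, 8026 without the control peptide and 8683 without APOE130-149. In that order 2511, 1831 and 1920 were higher in monocytes and 2584, 1940 and 2028 lower. In neutrophils 1609, 1393 and 1285 were higher and 1834, 1504 and 852 lower. Without the library as a block, that is without pairing, 7 genes were called in monocytes, 5 in neutrophils, 0 in border-associated macrophages, 1 in cycling microglia and 0 in both other states. Of all 8543 genes tested between classes, 2477 were then higher and 2588 lower in monocytes, and 1666 were higher and 2369 lower in neutrophils. No paired analysis was possible between treatments because each has 1 library. Gates with at most 2 microglia markers and leaving out cycling cells or cells with T, NK or choroid plexus markers were chosen after seeing the data. Depth limits the values of border-associated macrophages and of Sqle and Fdft1, which failed the filter on low counts.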

Other observations

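Within microglia thinned to 3000 UMIs each and pooled over libraries, the 9 genes were set against each other. The ratios leave out cells with 1 UMI of the other 8 genes. In cells with at least 2 UMIs of the other 8 genes, against cells with 0, Idi1 was at 4.18 [1.88 to 8.42] times, Cyp51 at 2.28 [1.21 to 3.98] times, Msmo1 at 1.93 [1.26 to 2.84] times and Fdps at 1.90 [1.10 to 3.07] times the level. For the other 5 genes the interval included 1, with Sqle at 5.41 [0.957 to 21.02], Srebf2 at 1.52, Insig1 at 1.46, Hmgcs1 at 1.22 and Fdft1 at 1.06. At 2 or more, Idi1, Cyp51, Msmo1 and Fdps gave 10, 14, 27 and 18 UMIs. With APOE130-149, Cyp51 gave 0 there. In cells with 1, Idi1 was at 3.55, 1.51 and 6.03 CPM (sham, control peptide, APOE130-149), against 2.80, 3.43 and 1.58 with 0. Cyp51 was at 6.30, 6.70 and 4.81 against 9.11, 7.06 and 6.99 CPM. Msmo1 was at 22.8, 26.3 and 33.7 against 28.0, 26.5 and 25.1 CPM. Fdps was at 17.6, 14.9 and 17.5 against 14.9, 15.6 and 9.63 CPM. Cells of 1 library are not replicates, and these intervals cover counting error only.

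Over the 12 sums of library and class, the genes whose log2(CPM + 1) was most like that of the summed cholesterol synthesis genes, among 3202 genes of at least 50 CPM on average, were Frg1 (Pearson r = 0.943), Napsa (0.941), Oaz1 (0.940), Arhgap30 (0.930) and H2afz (0.930). The sums of 1 library share its depth and preparation, and these values describe likeness only. Napsa, for example, gave 557, 508 and 504 CPM in monocytes and 1.11, 0.648 and 0.237 CPM in microglia.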
